A study of Mus musculus with 9 samples.

Results

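The TREM receptors Trem1, Trem2 and Trem3, the signalling adaptors Tyrobp (DAP12) and Hcst (DAP10), and the inhibitory receptor Pirb (PIR-B) were followed in mouse monocytes that had met platelets. These 6 genes were chosen by symbol from the 55367 symbols counted, with earlier results of these data known, and all 6 passed the filter on low counts that left 13707 genes. Adult monocytes were kept for 4 h with a control buffer alone, with platelets from adult mice, or with platelets from P7 mice (postnatal day 7), and were then washed before polyadenylated RNA was sequenced. Each of the 3 groups had 3 libraries, so there were 9 in all, and the monocytes of every group were adult. The sources used here do not state the strain, the sex, where the monocytes were taken from or the dose of platelets. The labels also do not say whether replicates came from separate animals or cultures, so the p-values measure the spread between these libraries, which may be technical.

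TREM receptors are immunoglobulin-like proteins of myeloid cells with a very short cytoplasmic tail. A charged residue in the membrane ties them to DAP12, whose ITAM (immunoreceptor tyrosine-based activation motif) is phosphorylated by Src-family kinases and recruits the kinase Syk. DAP10 carries no ITAM and instead binds phosphoinositide 3-kinase and Grb2, and it is best known as the partner of NKG2D in lymphocytes. TREM-1 is known as an amplifier of Toll-like receptor responses in monocytes and neutrophils, while TREM-2 binds lipids and apolipoproteins and is studied mostly in microglia and tissue macrophages. PIR-B works in the opposite sense: its ITIMs (inhibitory motifs) recruit the phosphatases SHP-1 and SHP-2, and class I MHC molecules are among its ligands.

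Total counts were 35314701 to 37065564 per control library, 30974956 to 34394579 with adult platelets and 29687341 to 35333463 with P7 platelets. All 12 monocyte markers examined had counts, with a summed level of 38908 to 48496 CPM (counts per 1000000 counts, normalised between libraries) over the 9 libraries. The 13 platelet markers summed to 23.0 to 25.7 CPM in control, 743 to 1323 CPM with adult platelets and 1407 to 1625 CPM with P7 platelets, and the 5 erythroid markers to 8.16 to 11.0, 457 to 1734 and 48749 to 60945 CPM. Both sums were thus higher in every platelet library than in any control. Leaving these marker transcripts and the mitochondrial genes out of the fit changed the call of none of the 6 genes. Whether platelet or erythroid RNA adds to the counts of the 6 genes themselves was not tested. The 12 neutrophil markers summed to 381 to 404 CPM in control, 410 to 564 CPM with adult platelets and 380 to 394 CPM with P7 platelets, adult platelet replicate 3 being the highest library. The 8 B and plasma cell markers reached 1015 CPM in control replicate 1, 1108 CPM in adult platelet replicate 1 and 1009 CPM in P7 platelet replicate 1. In the other libraries they summed to 249 to 608 CPM, adult platelet replicate 3 being the highest of those.

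The 3 TREM genes lie in 1 cluster on chromosome 17, and both adaptor genes lie side by side on chromosome 7. In the GENCODE M21 models of GRCm38, Trem1 (ENSMUSG00000042265.13) spans chr17:48232768-48246924, Trem3 (ENSMUSG00000041754.5) chr17:48247777-48258841 and Trem2 (ENSMUSG00000023992.14) chr17:48346401-48354147, all on the plus strand. Only 852 bases separate Trem1 from Trem3, whereas Trem2 begins 114 kb from the Trem1 start. Tyrobp (ENSMUSG00000030579.10, chr7:30413760-30417585, plus strand) and Hcst (ENSMUSG00000064109.8, chr7:30417712-30419854, minus strand) point towards each other with 126 bases between their ends. Pirb (ENSMUSG00000058818.13) is at chr7:3711409-3720391 on the minus strand.

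RefSeq promoter sequences (GRCm38.p6) were at hand for 4 of the 6 genes, Trem1, Trem2, Pirb and Hcst. The 250 bases before the start site are shown for Trem1 and Trem2, the TREM genes whose mRNA moved in opposite directions, and for Pirb, the inhibitory receptor. Capitals mark matches to the motifs searched on both strands, namely the PU.1 core GAGGAA, AP-1 TGANTCA, the GAS element TTCNNNGAA, the ISRE, C/EBP TTGCNNAA and the NF-kB consensus. PU.1 and C/EBP are transcription factors of myeloid cells, AP-1 and NF-kB respond to stimulation, and the GAS and ISRE elements are bound by STAT and IRF complexes.
Trem1 (chr17:48232489-48232738, plus strand): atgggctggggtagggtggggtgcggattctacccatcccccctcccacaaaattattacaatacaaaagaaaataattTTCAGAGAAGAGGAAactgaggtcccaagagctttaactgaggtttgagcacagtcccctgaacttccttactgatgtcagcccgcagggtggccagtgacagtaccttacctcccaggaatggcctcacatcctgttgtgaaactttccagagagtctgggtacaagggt
Trem2 (chr17:48346151-48346400, plus strand): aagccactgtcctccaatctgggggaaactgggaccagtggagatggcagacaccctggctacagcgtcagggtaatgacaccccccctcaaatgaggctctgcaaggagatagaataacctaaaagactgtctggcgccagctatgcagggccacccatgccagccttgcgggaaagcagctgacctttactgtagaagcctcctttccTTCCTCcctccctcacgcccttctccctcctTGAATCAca
Pirb (chr7:3720383-3720632, minus strand): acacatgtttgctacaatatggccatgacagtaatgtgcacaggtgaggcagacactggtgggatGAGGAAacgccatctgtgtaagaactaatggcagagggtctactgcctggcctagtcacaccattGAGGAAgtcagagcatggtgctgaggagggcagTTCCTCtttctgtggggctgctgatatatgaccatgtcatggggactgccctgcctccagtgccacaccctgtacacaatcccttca

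The Trem1 window held a GAS match 171 bases before the start, followed directly by a PU.1 core at 162 bases, so that both appear as 1 run of capitals. The Trem2 window held a PU.1 core on the minus strand at 40 bases and an AP-1 match at 9 bases before the start. The Pirb window held PU.1 cores at 185 and 120 bases and, on the minus strand, at 87 bases before the start. No motif matched in the Hcst window. Of 32851 mouse promoter windows of that length, 23.3% held at least 1 PU.1 core, 6.75% an AP-1 match and 7.02% a GAS match. How many held several PU.1 cores, as the Pirb window did, was not counted. The matches describe the letters only. The same windows held an ISRE match in 2.98%, a C/EBP match in 9.56% and an NF-kB match in 7.25%.

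With adult platelets Trem1 and Trem3 rose and Trem2 fell, and with P7 platelets Trem1, Trem3, Pirb and, by a small amount, Tyrobp rose and Trem2 fell. With P7 platelets Trem3 was 3.38 times, Pirb 2.39 times and Trem1 2.22 times its control level, and Trem2 was at 0.438 of it. Of 20 alternative settings, the Tyrobp call was lost in 8 and its direction turned in 1, and the Trem2 call with adult platelets was lost in 8. Hcst passed the test in neither comparison. Genes were tested with edgeR's quasi-likelihood test in 1 fit to the 9 libraries, with p-values adjusted by Benjamini-Hochberg over all 13707 genes and called below 0.05. Both comparisons use the same 3 control libraries.

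**Figure D1:**
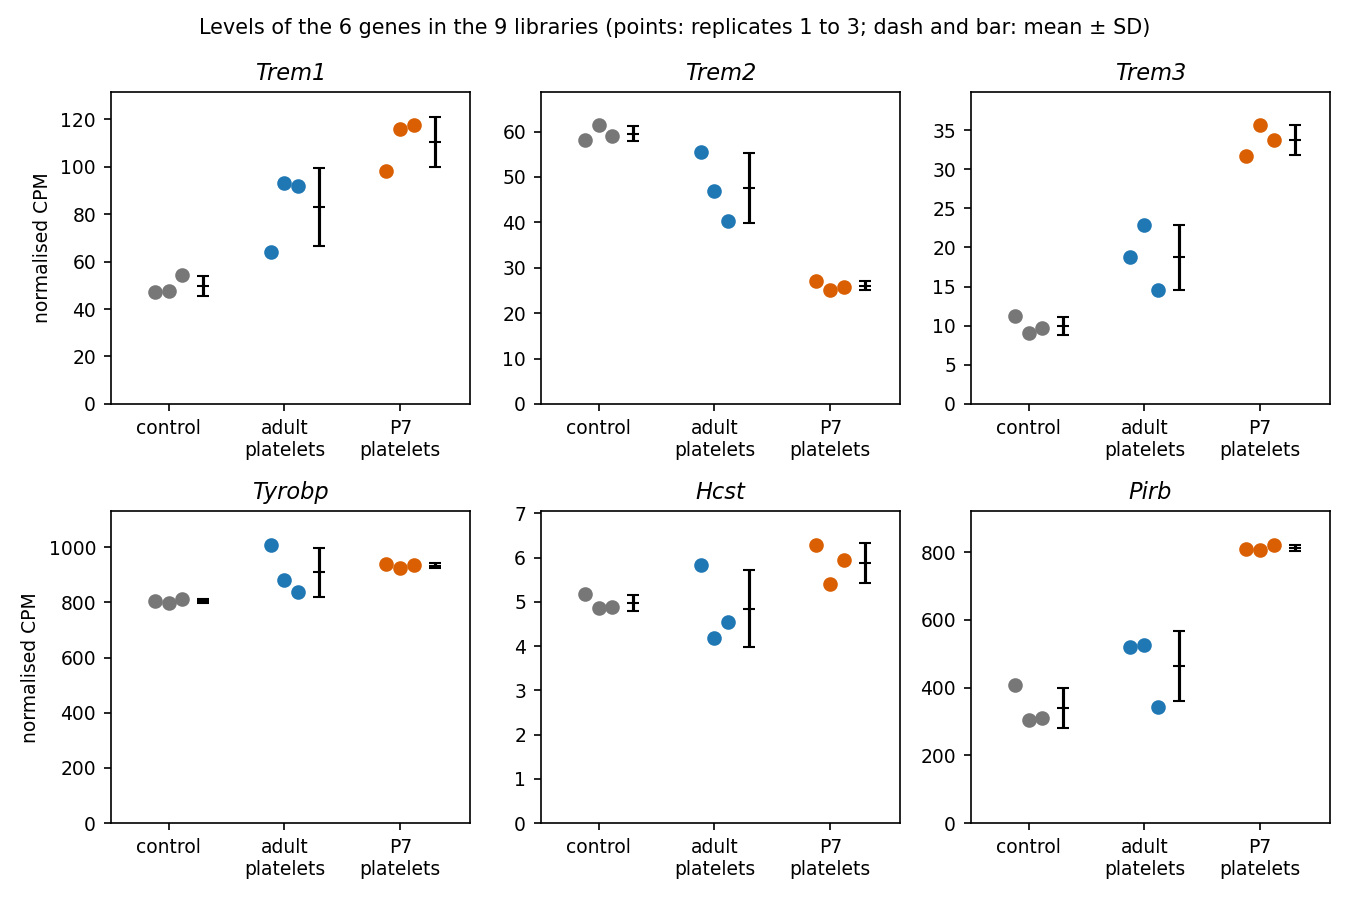
Normalised CPM (y axis, linear, from 0) of Trem1, Trem2, Trem3, Tyrobp, Hcst and Pirb in control, adult platelet and P7 platelet libraries (x axis); points are the 3 replicates and the dash with bar is mean ± SD. Trem2 falls from 58.1 to 61.4 CPM in control to 25.2 to 27.2 CPM with P7 platelets, while Trem1, Trem3 and Pirb are highest with P7 platelets.

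These changes came against a background of many. With adult platelets 2 of the 6 genes were called higher, where 14.3% of all genes tested were, and 1 was called lower, where 12.0% were; calls in either direction made up 26.4% of all genes. With P7 platelets 4 were called higher against 29.9% of all genes, and 1 lower against 29.3%, with 59.2% called in either direction. Between P7 and adult platelets 3 were called higher against 19.7% of all genes and 1 lower against 19.8%, with 39.6% called in either direction. The 3 libraries of each group did not overlap for 4 of the 6 genes with adult platelets against control, for all 6 with P7 platelets against control and for 4 with P7 against adult platelets, where 42.7%, 69.1% and 49.0% of all genes tested did not. The median log2 fold change of the 6 genes was 0.31, 0.70 and 0.34 in these comparisons, and that of all genes tested was -0.0022, -0.014 and -0.024.

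Trem1, the amplifying receptor, rose in both platelet groups. Its level was 47.1, 47.8 and 54.5 CPM in control replicates 1 to 3, 64.1, 93.2 and 92.1 CPM with adult platelets, and 98.2, 116 and 117 CPM with P7 platelets. No group overlapped another, and adult platelet replicate 1 stood nearest to the controls. The mean rose from 49.8 ± 4.10 CPM (SD, n = 3) to 83.1 ± 16.5 with adult platelets, a log2 fold change of 0.74 ± 0.14 (SE; edgeR adjusted p = 0.00508), and to 110.5 ± 10.6 with P7 platelets, a log2 fold change of 1.15 ± 0.14 (edgeR adjusted p = 9.94e-05). P7 exceeded adult platelets by 0.41 ± 0.14 on the log2 scale (edgeR adjusted p = 0.0407). That last call was lost, with values of 0.25 to 0.41, when control replicate 1 or 2, adult platelet replicate 1 or P7 platelet replicate 2 or 3 was left out; without adult platelet replicate 1 the difference was 0.25. An antisense gene, AC241601.2, overlaps the span of Trem1, and its level was not analysed here. None of the 2994 stretches of 75 bases, the length of a read, in the GENCODE M21 transcripts of Trem1 occurred in transcripts of another gene on either strand. The sources used here do not state whether counting used strand or which annotation it used.

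Trem3, the close neighbour of Trem1 and likewise a DAP12-coupled activating receptor, had the largest rise of the 6 genes in both comparisons with control. Control libraries held 11.3, 9.003 and 9.65 CPM, adult platelet libraries 18.7, 22.8 and 14.6 CPM, and P7 platelet libraries 31.7, 35.6 and 33.8 CPM. The groups followed one another without overlap, adult platelet replicate 3 being the lowest of its group. From 9.97 ± 1.16 CPM in control the mean rose to 18.7 ± 4.10 with adult platelets (log2 fold change 0.91 ± 0.15, edgeR adjusted p = 0.00265) and to 33.7 ± 1.94 with P7 platelets (1.76 ± 0.15, edgeR adjusted p = 1.31e-05). P7 against adult platelets gave 0.85 ± 0.14 (edgeR adjusted p = 0.00174).

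Trem2, the lipid-binding receptor, moved the other way. It stood at 58.1, 61.4 and 59.1 CPM in control, 55.6, 46.8 and 40.4 CPM with adult platelets and 27.2, 25.2 and 25.8 CPM with P7 platelets. The P7 libraries lay far below both other groups, while adult platelet replicate 1 came close to the control range. With P7 platelets the mean fell from 59.5 ± 1.68 to 26.1 ± 1.01 CPM, a log2 fold change of -1.19 ± 0.10 (edgeR adjusted p = 1.27e-05), and P7 lay below adult platelets by a log2 fold change of -0.87 ± 0.10 (edgeR adjusted p = 0.000284). With adult platelets the mean was 47.6 ± 7.64 CPM and the log2 fold change -0.32 ± 0.10 (edgeR adjusted p = 0.0385). This smaller fall was no longer called when any control library, adult platelet replicate 2 or 3, or P7 platelet replicate 2 or 3 was left out, with log2 fold changes of -0.34 to -0.22 in those fits, -0.22 without adult platelet replicate 3. In whole-culture RNA, fewer cells that express a gene and less of its RNA per cell cannot be told apart.

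Markers of other cells moved as follows beside these 3 receptors, and whether other cells add to the receptor levels was not tested. TREM-1 and TREM-3 are also made by neutrophils; the neutrophil sum was 564 CPM in adult platelet replicate 3 and at most 432 CPM in every other library, and in that library Trem1 was 92.1 CPM and Trem3, at 14.6 CPM, was the lowest of its group. With P7 platelets the neutrophil sum overlapped that of control. Csf3r was its largest part, with means of 210, 218 and 225 CPM in control, with adult and with P7 platelets. Single markers differed from control in both directions with P7 platelets. Elane went from 16.0 to 10.4 CPM and Stfa2l1 from 0.136 to 0.984 CPM, so the sum hides opposite moves. The 10 tissue macrophage markers, of which Vsig4 had no counts, summed to 262 to 275 CPM in control, 170 to 223 CPM with adult platelets and 388 to 419 CPM with P7 platelets, so the sum was highest in the group where Trem2 was lowest. Adgre1 (F4/80) made up most of it, with means of 262, 187 and 390.4 CPM, and C1qa was near 0 at 0.393, 0.979 and 1.0 CPM.

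The balance between Trem1 and Trem2 within a library does not depend on how libraries are scaled. The ratio of Trem1 to Trem2 counts was 0.811, 0.778 and 0.922 in control, 1.15, 1.99 and 2.28 with adult platelets, and 3.62, 4.60 and 4.55 with P7 platelets. Every control library thus held fewer Trem1 than Trem2 reads and every platelet library more. The ratio was 2.08 times the control ratio with adult platelets and 5.07 times with P7 platelets, and P7 exceeded adult platelets 2.44 times. Each of these differences had p = 0.1 in an exact two-sided permutation test of the log2 ratios, the smallest p that 3 against 3 libraries allow, and 0.15 after adjustment over the 9 ratio tests made.

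The ratio of Trem1 to Trem3 counts was 5.05 ± 0.766 (SD, n = 3) in control, 4.60 ± 1.504 with adult platelets and 3.28 ± 0.190 with P7 platelets. The exact permutation p was 0.6 for adult platelets against control, 0.1 for P7 platelets against control (adjusted 0.15) and 0.2 for P7 against adult platelets (adjusted 0.257), and with 3 against 3 libraries none could have passed 0.05. The P7 libraries, at 3.10 to 3.48, lay below the controls, at 4.18 to 5.65, and the adult platelet libraries, at 3.43 to 6.30, overlapped both. Of the summed Trem1, Trem2 and Trem3 counts, Trem2 made up 49.9% ± 1.99 (SD, n = 3) in control, 32.1% ± 6.99 with adult platelets and 15.4% ± 1.66 with P7 platelets. Trem3 made up 8.37% ± 1.13, 12.5% ± 2.22 and 19.8% ± 0.626, and Trem1 41.7% ± 2.17, 55.4% ± 8.29 and 64.8% ± 2.02. The summed level of the 3 receptors was 119 ± 3.58, 149 ± 12.4 and 170.2 ± 11.4 CPM. These shares are of reads and not of molecules, since the transcripts differ in length.

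**Figure D2:**
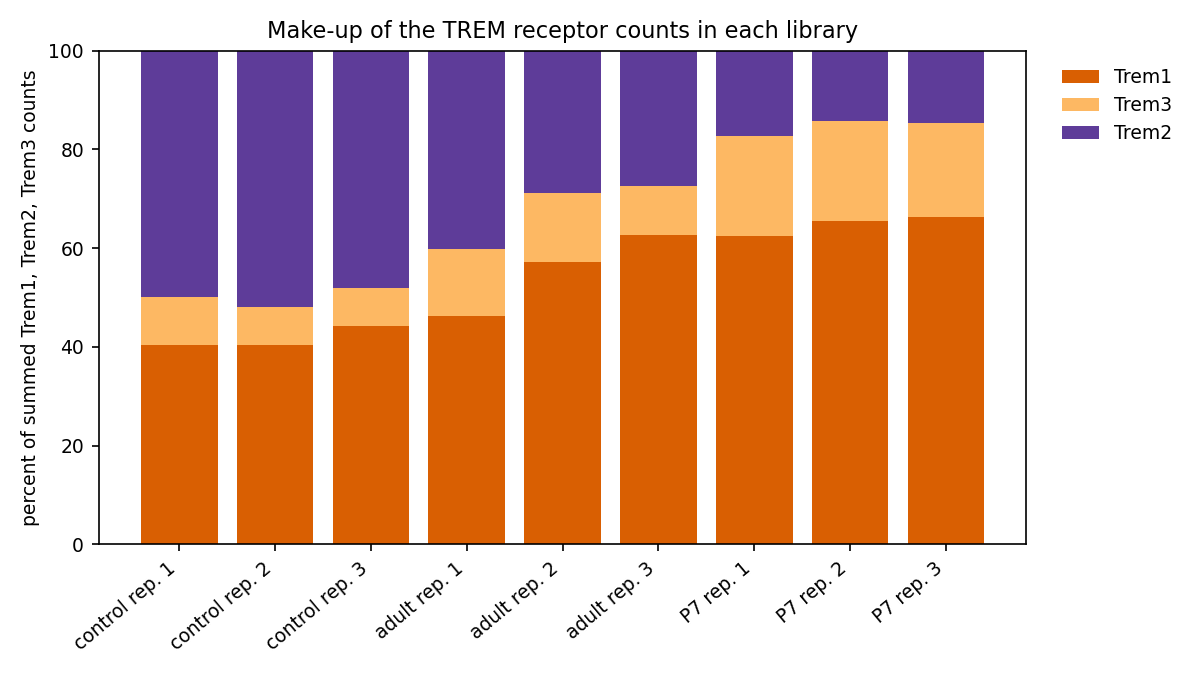
Stacked bars give the percent (y axis) of the summed Trem1, Trem2 and Trem3 counts that each gene took in each of the 9 libraries (x axis). The Trem2 share ranges from 48.0% to 51.9% in control, 27.5% to 40.2% with adult platelets and 14.3% to 17.3% with P7 platelets.

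Per kb of transcript, the order of the receptors changed between groups. Over the principal transcript of each gene (2993 bases for Trem1, 1088 for Trem2 and 994 for Trem3), the level in CPM per kb in control was 54.7 ± 1.55 (SD, n = 3) for Trem2, 16.6 ± 1.37 for Trem1 and 10.03 ± 1.17 for Trem3. With adult platelets Trem2 was at 43.8 ± 7.02, Trem1 at 27.8 ± 5.50 and Trem3 at 18.8 ± 4.13 CPM per kb. With P7 platelets the order was Trem1 at 36.9 ± 3.55, Trem3 at 33.9 ± 1.95 and Trem2 at 24.0 ± 0.932 CPM per kb, and the ranges of Trem1 (32.8 to 39.2) and Trem3 (31.9 to 35.8) overlapped. The place of Trem2 rested on the length used. Over the union of all annotated exons, 4946 bases for Trem2, it was at 12.0 CPM per kb in control, below Trem1 at 16.6.

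Tyrobp, which encodes the adaptor DAP12 of all 3 TREM receptors, was the most abundant of the 6 genes and ranked 103rd of 13707 by mean CPM. It stood at 805, 798 and 811 CPM in control, 1009, 881 and 836 CPM with adult platelets, and 940.1, 925 and 934 CPM with P7 platelets. Both platelet groups lay above all controls, and the adult platelet libraries spread around the P7 ones. The means were 805 ± 6.65, 908 ± 89.7 and 933 ± 7.76 CPM. P7 platelets against control gave a log2 fold change of 0.21 ± 0.07 (edgeR adjusted p = 0.0224), a call that was lost when any control or any P7 platelet library was left out and that depended on the scaling of libraries. Scaled to library totals without TMM factors, the value was -0.064, beside a median of all genes of -0.29. Adult platelets against control gave 0.17 ± 0.07 (edgeR adjusted p = 0.0888) and passed without adult platelet replicate 3 (0.23, edgeR adjusted p = 0.0289). P7 against adult platelets gave 0.04 ± 0.07, with a 95% interval from -0.11 to 0.19 (edgeR adjusted p = 0.691).

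Hcst, the adaptor DAP10, had the lowest mean CPM of the 6 genes, with 143 to 207 counts per library and rank 9269. Its place per kb in control rested on the length used. Over the principal transcript the control mean was 11.3 CPM per kb for Hcst and 10.03 for Trem3, with overlapping ranges. Over the exon union it was 6.89 for Hcst and 10.03 for Trem3. In both platelet groups Hcst was below Trem3 by either length. The level of Hcst was 5.18, 4.86 and 4.89 CPM in control, 5.82, 4.18 and 4.54 CPM with adult platelets, and 6.29, 5.39 and 5.94 CPM with P7 platelets. The adult platelet libraries spanned the controls, and the P7 libraries lay just above the controls. The log2 fold change was -0.04 with a 95% interval from -0.34 to 0.26 for adult platelets (edgeR adjusted p = 0.857) and 0.24 with an interval from -0.06 to 0.54 for P7 platelets (edgeR adjusted p = 0.145). P7 against adult platelets gave 0.28 with an interval from -0.02 to 0.58 (edgeR adjusted p = 0.127), and passed without adult platelet replicate 1 (0.43, edgeR adjusted p = 0.0154). The NK cell markers, among the cells where DAP10 is best known, summed to 17.1 to 26.2 CPM in control, 14.2 to 16.0 CPM with adult platelets and 10.04 to 16.3 CPM with P7 platelets. Klrk1, the gene of the DAP10 partner NKG2D, made up nearly all of this sum, with means of 21.3, 14.5 and 13.3 CPM, while Nkg7, the next highest, was at 0.453, 0.477 and 0.456 CPM and Ncr1, a defining NK receptor, had no counts in any control or adult platelet library.

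Per kb of principal transcript the adaptors stood far apart in every group, at 1427 ± 11.8 (SD, n = 3), 1611 ± 159 and 1654 ± 13.8 CPM per kb for Tyrobp and 11.3 ± 0.3998, 11.0 ± 1.96 and 13.3 ± 1.03 for Hcst in control, with adult and with P7 platelets. The ratio of Tyrobp to Hcst counts was 162 ± 5.65, 189 ± 19.3 and 159 ± 11.2. Its exact permutation p was 0.1 for adult platelets against control and for P7 against adult platelets (both 0.15 adjusted) and 0.8 for P7 platelets against control.

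Pirb, the inhibitory receptor, rose with P7 platelets to a level that was nearly the same in each library. It stood at 407, 304 and 309 CPM in control, 521, 526 and 344 CPM with adult platelets, and 809, 807 and 822 CPM with P7 platelets. Control replicate 1 was the high control and adult platelet replicate 3 the low library of its group, so those groups overlapped, whereas every P7 library lay well above both. The mean was 340.1 ± 57.9 CPM in control and 813 ± 8.29 CPM with P7 platelets, a log2 fold change of 1.26 ± 0.17 (edgeR adjusted p = 0.00016), and P7 exceeded adult platelets by 0.81 ± 0.16 (edgeR adjusted p = 0.00405). With adult platelets the mean was 464 ± 104 CPM and the log2 fold change 0.45 ± 0.16, with an interval from 0.08 to 0.81 (edgeR adjusted p = 0.0731). This comparison passed without control replicate 1 (0.60, edgeR adjusted p = 0.0344) or without adult platelet replicate 3 (0.62, edgeR adjusted p = 0.00659).

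Pirb belongs to a family of near-identical genes, and its level is uncertain to that degree. Of the 4748 stretches of 75 bases in its GENCODE M21 transcripts, the length of a read, 26.9% also occurred in transcripts of 50 other genes. The largest share, 14%, was with Gm14548, followed by 13.2% with Pira2, which encodes an activating paired receptor, 9.25% with Gm15922, 8.64% with Gm15925 and 8.4% with Lilra6. None of the stretches of the other 5 genes did. The 250 bases before the Pirb start differed from those before Pira1 at 5 positions, and the 3 PU.1 cores stood at the same places in both. Pira1 has no value here, and Pira2 was low at 4.12, 6.91 and 7.48 CPM in control, with adult and with P7 platelets, its adult platelet call being lost without control replicate 2 or 3.

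**Figure D3:**
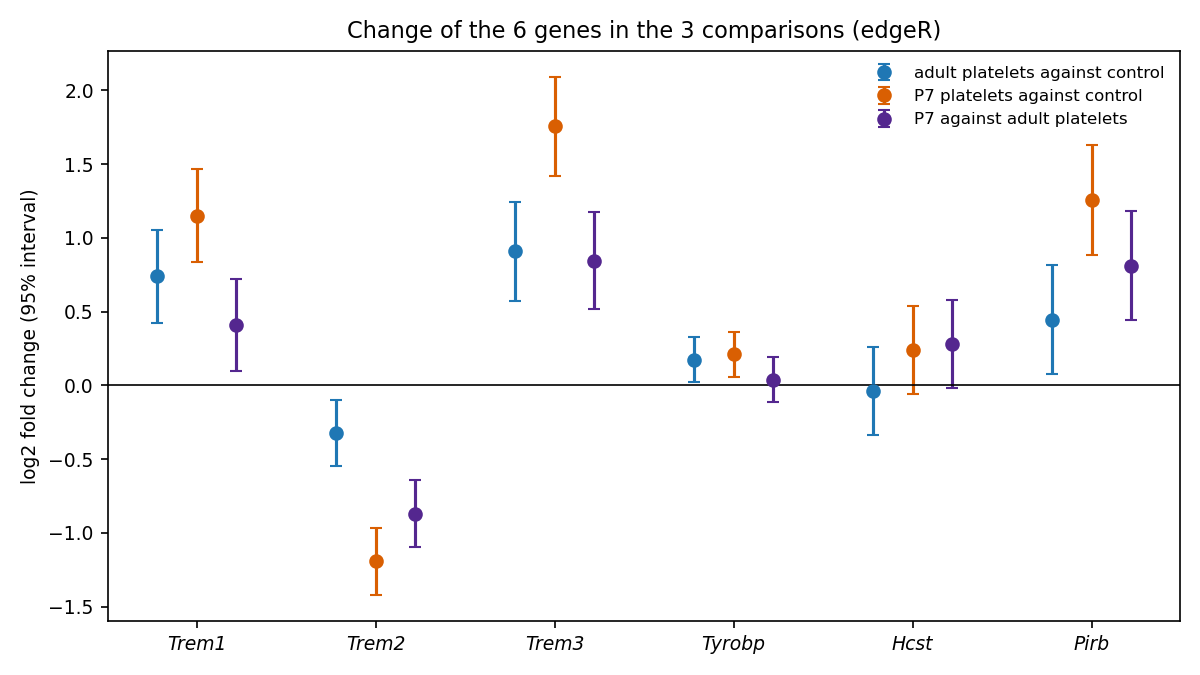
Log2 fold change with its 95% interval from edgeR (y axis) of the 6 genes (x axis) for adult platelets against control, P7 platelets against control and P7 against adult platelets. Trem3, Pirb and Trem1 lie highest for P7 platelets against control (1.76, 1.26 and 1.15), Trem2 lowest at -1.19, and every interval of Hcst includes 0.

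The genes between and beside the TREM receptors on chromosome 17 also moved. Treml1, Treml2 and Treml4 were tested and Treml6 was not analysed here. With P7 platelets 3 of 3 were called higher, against 29.9% of all genes, and with adult platelets 2 of 3, against 14.3%. Their median log2 fold changes were 2.15 and 1.74. The 2 were 1 with the platelet marker transcripts removed, Treml1 being 1 of them. Treml1 encodes TLT-1, a receptor of platelet granules, and is itself a platelet marker: it was at 0.597 ± 0.221 CPM (SD, n = 3) in control, 28.5 ± 9.52 with adult platelets and 83.7 ± 3.29 with P7 platelets. Treml2, a receptor described on lymphocytes and myeloid cells, rose from 13.3 ± 2.25 to 44.4 ± 8.01 CPM with adult platelets (log2 fold change 1.74 ± 0.15, edgeR adjusted p = 8.31e-05) and 45.0 ± 3.66 CPM with P7 platelets (1.76 ± 0.15, edgeR adjusted p = 1.39e-05). Treml4, a DAP12-linked receptor for dying cells, was at 23.9 to 34.2 CPM in control, 20.2 to 63.2 CPM with adult platelets and 96.3 to 139 CPM with P7 platelets, and rose with P7 platelets (2.15 ± 0.35, edgeR adjusted p = 0.000604). With adult platelets its value was 0.61 ± 0.34 (edgeR adjusted p = 0.226), and 0.94 without adult platelet replicate 3 (edgeR adjusted p = 0.0166). P7 exceeded adult platelets for Treml4 by 1.54 ± 0.34 (edgeR adjusted p = 0.0065). Trem2 was the 1 gene of the 6 measured in the cluster that fell.

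**Figure D4:**
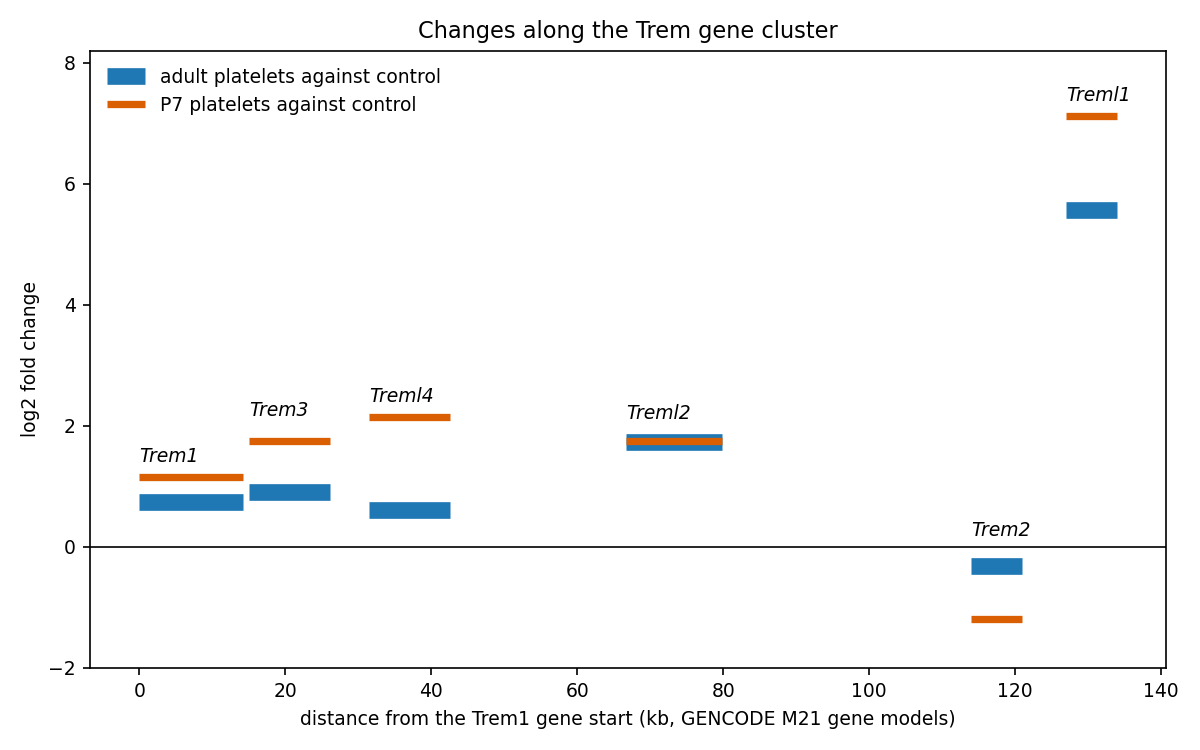
Log2 fold change against control (y axis) of the 6 measured genes of the Trem cluster, drawn as bars over each gene's span in kb from the start of Trem1 (x axis); wide bars are adult platelets and narrow bars P7 platelets. Trem2, starting at 114 kb, lies below 0 in both comparisons between Treml2 at 66.7 kb and Treml1 at 127 kb, which lie above it; the adult platelet value of Treml4 (0.61) did not pass the test.

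Other receptors that signal through DAP12 or DAP10 were called in both directions. Of 14 listed, 10 passed the filter and Siglec15, Klra4, Klra8 and Klrc2 did not. With P7 platelets 4 were higher, 2 lower and 4 not called (median -0.0084). Over all genes tested 59.2% were called in that comparison, 29.9% higher and 29.3% lower (median -0.014). Clec5a, which encodes the DAP12-coupled lectin MDL-1, rose from 189 CPM in control to 297 with adult platelets (log2 fold change 0.65 ± 0.12, edgeR adjusted p = 0.00394) and 620.2 with P7 platelets (1.72 ± 0.12, edgeR adjusted p = 4.38e-06). The activating paired receptors Pilrb1 and Pilrb2 rose with P7 platelets from 6.15 to 34.4 CPM and from 5.73 to 28.1 CPM. Cd300lb fell from 386 to 273 CPM (-0.50 ± 0.09, edgeR adjusted p = 0.000991). Klrk1, which encodes NKG2D, was at 21.3 CPM in control and 13.3 with P7 platelets (-0.68 ± 0.21, edgeR adjusted p = 0.0179), a call lost without control replicate 2 (-0.55) or 3 (-0.64).

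With adult platelets 1 of these 10 receptors was higher, Clec5a, and 9 were not called (median 0.63). Over all genes tested 26.4% were called with adult platelets, 14.3% higher and 12.0% lower. The adult platelet count depended on the setting, and 1 was the lowest count of higher receptors in any. It was 6 with no filter, 4 with DESeq2, limma-voom, the 2 groups alone or Igkc as a covariate, 3 with the stricter filter and 2 with DESeq2 size factors. It was 3 without control replicate 1, adult platelet replicate 3 or P7 platelet replicate 2, and 4 without P7 platelet replicate 1. Receptors called lower with adult platelets numbered 1 or 2 in 10 of the 20 alternatives, 2 with DESeq2, with library totals and without control replicate 1. The P7 count of lower receptors was 1 without control replicate 2 or 3 and 5 without P7 platelet replicate 1. The signal-regulatory receptors Sirpb1a and Sirpb1b stood at 27.4 and 22.4 CPM in control, 44.2 and 35.6 with adult platelets and 23.0 and 21.5 with P7 platelets. They are close paralogues whose reads may be shared. For adult platelets against control the log2 fold changes just missed the threshold (0.69, edgeR adjusted p = 0.0536, and 0.67, edgeR adjusted p = 0.0505), and both were called with no filter, the stricter filter, DESeq2, limma-voom, the 2 groups alone, Igkc as a covariate, and without P7 platelet replicate 1 or 2. Both were lower with P7 than with adult platelets (-0.94 ± 0.24, edgeR adjusted p = 0.0113, and -0.73 ± 0.22, edgeR adjusted p = 0.0271), the Sirpb1b call being lost without adult platelet replicate 1 or P7 platelet replicate 2 or 3 (-0.63 to -0.58). Without P7 platelet replicate 1, Sirpb1a and Sirpb1b were also called lower with P7 platelets than in control (-0.63 and -0.41).

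Downstream of the adaptors, 24 ITAM signalling genes were tested. With P7 platelets 10 were higher, 10 lower and 4 not called (median -0.14). With adult platelets 3 were higher, 4 lower and 17 not called (median 0.08). The shares of all genes tested were 29.9% higher and 29.3% lower with P7 platelets, and 14.3% and 12.0% with adult platelets. The Src-family kinase Fgr, one of the kinases that phosphorylate ITAMs, rose in both groups. It went from 333 CPM to 566 with adult platelets (0.77 ± 0.11, edgeR adjusted p = 0.00142) and 945 with P7 platelets (1.51 ± 0.11, edgeR adjusted p = 6.77e-06). Fcer1g, the other common ITAM adaptor of myeloid cells, rose with P7 platelets from 591 to 843 CPM (0.51 ± 0.07, edgeR adjusted p = 0.000155), and Pik3ap1, an adaptor for phosphoinositide 3-kinase, from 85.0 to 269 CPM. Syk, the kinase that docks on phosphorylated DAP12, fell by 0.23 with adult and by 0.28 with P7 platelets on the log2 scale (edgeR adjusted p = 0.0123 and 0.00121), the adult platelet call being lost without control replicate 2 or 3 (-0.22 and -0.20). The phosphoinositide 3-kinase subunits Pik3cd and Pik3r1 fell in both groups, Pik3cd from 419 to 310 CPM with adult platelets and 243 with P7 platelets, and Pik3r1 from 85.4 to 68.5 and 65.1 CPM. The adult platelet counts depended on the test and on single libraries, with 7 higher with DESeq2, 6 with Igkc as a covariate and 5 with no filter, 1 higher without control replicate 2, 5 higher without adult platelet replicate 3, and 2 lower without control replicate 2 or 3. With libraries scaled to their totals, 6 rather than 10 were called higher with P7 platelets.

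Among 12 genes listed as brakes on ITAM signalling, 5 were higher, 4 lower and 3 not called with P7 platelets (median 0.20). With adult platelets 2 were higher, 3 lower and 7 not called (median -0.07). Of all genes tested 29.9% were higher and 29.3% lower with P7 platelets, and 14.3% and 12.0% with adult platelets. The Syk-directed phosphatase Ubash3b (Sts-1) rose from 37.1 CPM to 58.7 with adult platelets and 146 with P7 platelets (log2 fold changes 0.66 ± 0.14, edgeR adjusted p = 0.00952, and 1.97 ± 0.15, edgeR adjusted p = 5.94e-06). Both phosphatases that bind the ITIMs of PIR-B were called higher with P7 platelets. Ptpn11 (SHP-2) rose from 189 to 283 CPM, and Ptpn6 (SHP-1) from 1157 to 1634 CPM, whereas Ptpn6 fell to 885 CPM with adult platelets (-0.39 ± 0.12, edgeR adjusted p = 0.0392). That fall was lost without any 1 control library, adult platelet replicate 3 or P7 platelet replicate 2 or 3 (-0.40 to -0.26), and the P7 call of Ptpn6 was lost with libraries scaled to their totals (0.22). Ptpn6, like Syk, Pira2, Spp1 and Cd200r1, was named after its values were seen. The docking protein Dok2 rose in both groups, from 7.69 to 12.7 and 15.5 CPM. Pag1 rose with P7 platelets from 57.2 to 84.7 CPM. Csk, the kinase that inactivates Src-family members, fell from 235 to 202 and 195 CPM. Its adult platelet call was lost without control replicate 2 (-0.20). Without control replicate 2 none of the 12 was called lower with adult platelets, and without control replicate 3 or adult platelet replicate 3 1 was.

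Pirb's relatives, the inhibitory and paired immunoglobulin-like and lectin receptors, gave 9 higher, 4 lower and 6 not called of 19 tested with P7 platelets (median 0.43). With adult platelets 7 were higher, 1 lower and 11 not called (median 0.31), the 7 becoming 4 without control replicate 3. Of all genes tested 29.9% were higher and 29.3% lower with P7 platelets, and 14.3% and 12.0% with adult platelets. Pilra, the inhibitory partner of the Pilrb receptors, rose from 14.4 to 113 CPM with P7 platelets (2.97 ± 0.37, edgeR adjusted p = 0.000107), and Siglece, a sialic acid receptor with ITIMs, from 5.38 to 26.8 CPM. Fcgr2b, the inhibitory Fc receptor, rose from 111 to 161 CPM with adult platelets and 298 with P7 platelets, and the collagen receptor Lair1 from 12.2 to 15.2 and 21.5 CPM, the adult platelet call of Lair1 being lost without control replicate 3 (0.27). Clec12a rose with P7 platelets from 119 to 326 CPM. Lilra6 was higher with adult platelets, at 41.6 CPM, than with P7 platelets, at 32.5 CPM, against 18.6 in control; P7 lay below adult platelets by -0.36 ± 0.12 (edgeR adjusted p = 0.044), a call lost without control replicate 2 or 3, adult platelet replicate 1 or 3, or P7 platelet replicate 2 or 3 (-0.37 to -0.26), and its reads may be shared with Pirb. Clec4a2 rose from 101 to 142.5 CPM with adult platelets. Cd200r1, the receptor of the inhibitory ligand CD200, rose with adult platelets from 38.4 to 60.6 CPM and fell with P7 platelets to 25.3 CPM (edgeR adjusted p = 0.00771 and 0.00456).

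**Figure D5:**
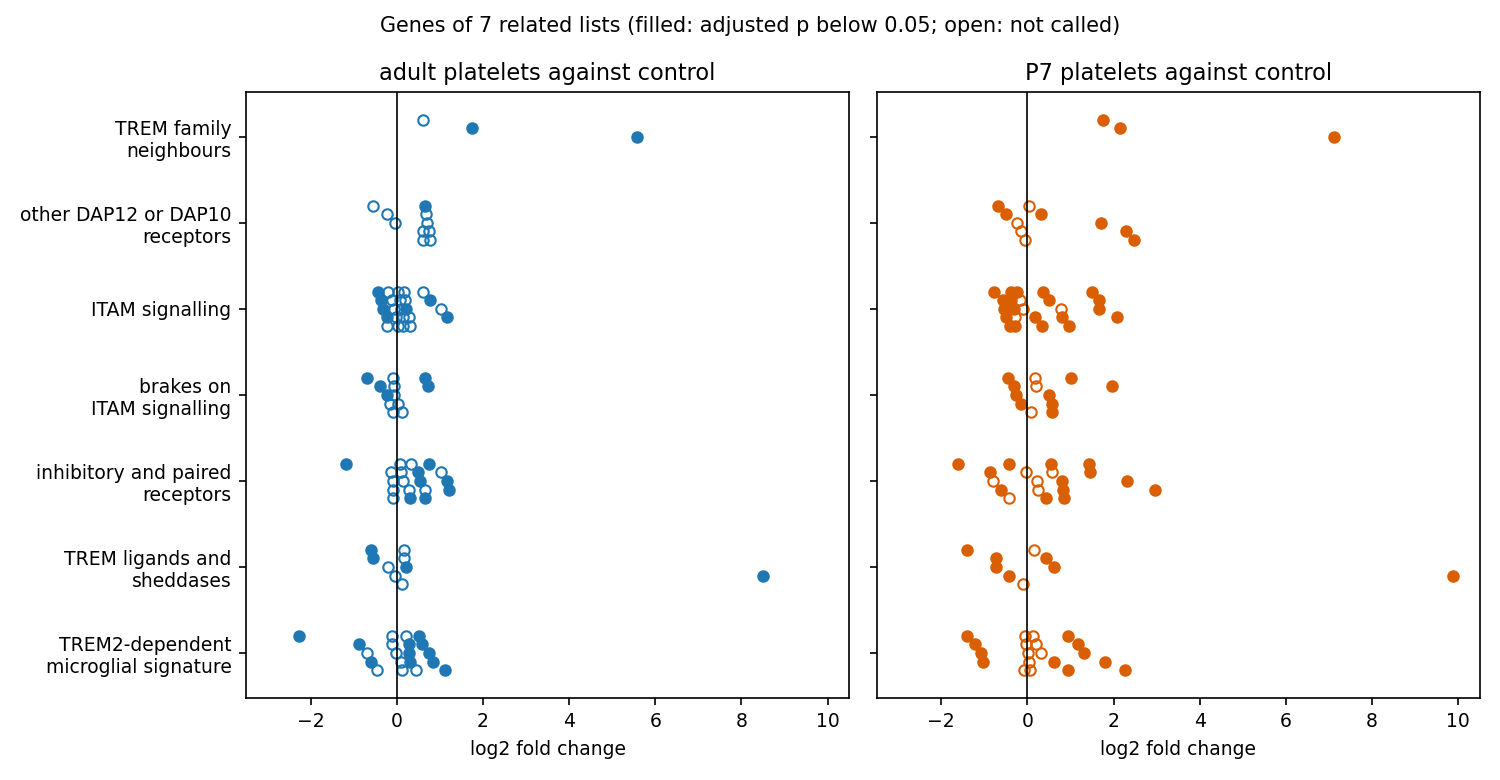
Each point is a tested gene of 1 of 7 lists (y axis, spread within a list only for legibility) at its log2 fold change (x axis) for adult platelets (left) and P7 platelets (right) against control; filled points passed the adjusted p threshold of 0.05. ITAM signalling genes lie on both sides of 0 with P7 platelets (10 filled higher, 10 filled lower), and the far right point in the ligand list is Clu at 8.50 and 9.88.

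Of the list of TREM ligands and of proteases that shed TREM receptors, which also held the receptor Lrp1, 9 of 10 were tested. Apoa1 was under the filter. With P7 platelets 3 were higher, 4 lower and 2 not called (median -0.11), where 29.9% of all genes tested were higher and 29.3% lower. With adult platelets 2 were higher, 2 lower and 5 not called (median 0.12), where 14.3% of all genes were higher and 12.0% lower. Apoe, an apolipoprotein ligand of TREM-2, fell with Trem2, from 2170 ± 149 CPM in control to 1440 ± 140 with adult platelets and 822 ± 8.17 with P7 platelets. Its log2 fold changes were -0.59 ± 0.08 (edgeR adjusted p = 0.000799) and -1.40 ± 0.08 (edgeR adjusted p = 1.52e-06). Clu, which encodes the TREM-2 ligand clusterin and is carried in platelets, was at 0.332 CPM in control, 121 with adult platelets and 316 with P7 platelets, alongside the platelet markers. Adam17, which cleaves TREM-2 from the surface, rose with P7 platelets from 430.4 to 664 CPM (0.63 ± 0.08, edgeR adjusted p = 0.000163), and Hspd1 from 69.5 to 94.1 CPM. Lrp1 fell from 850.2 to 515 CPM (-0.72 ± 0.16, edgeR adjusted p = 0.00402). Hmgb1, an alarmin tied to TREM-1, was called with adult platelets at 197 against 171 CPM (0.21 ± 0.06, edgeR adjusted p = 0.0404), a call lost without control replicate 2 or 3, adult platelet replicate 1 or 3, or P7 platelet replicate 2 or 3 (0.17 to 0.21). The adult platelet count of higher genes was 1 with upper-quartile factors, no filter, the 2 groups alone or library totals, and without control replicate 2 or 3, adult platelet replicate 3, or P7 platelet replicate 2 or 3, and that of lower genes was 1 without control replicate 2 or 3, any adult platelet library or P7 platelet replicate 2.

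The genes known as the TREM2-dependent lipid-handling signature of microglia were called in both directions. Of 20 tested, 7 were higher, 4 lower and 9 not called with P7 platelets (median 0.09), where Trem2 was lowest, and 8 higher, 3 lower and 9 not called with adult platelets (median 0.17), the 8 becoming 4 without control replicate 2 and the 3 becoming 5 with no filter, DESeq2 or without P7 platelet replicate 1 and 6 with library totals. With libraries scaled to their totals 8 were lower with P7 platelets. In the main fit 29.9% of all genes tested were called higher and 29.3% lower with P7 platelets (median -0.014). With adult platelets the all-gene shares were 14.3% and 12.0% (median -0.0022). Lpl, lipoprotein lipase, was at 147 CPM in control, 90.9 with adult platelets (-0.69 ± 0.24, edgeR adjusted p = 0.0592) and 706 with P7 platelets (2.27 ± 0.24, edgeR adjusted p = 4.74e-05). Its adult platelet difference was called in 9 of the 20 alternatives, among them upper-quartile factors, no filter, DESeq2, limma-voom and library totals, and without adult platelet replicate 2 or P7 platelet replicate 1. The cathepsin Ctsb rose from 740 to 918 and 1433 CPM, the lipid carrier Fabp5 from 5.68 to 9.56 and 12.9 CPM, and the tetraspanin Cd9, also a platelet protein, from 211 to 461 and 402 CPM. Spp1, osteopontin, rose with P7 platelets from 397 to 987 CPM. With adult platelets it was at 289 CPM (-0.46 ± 0.16, edgeR adjusted p = 0.0643), and that difference was called with no filter, DESeq2, the 2 groups alone, library totals or without P7 platelet replicate 1. The chemokine Ccl6 fell with P7 platelets from 299 to 129 CPM, and the growth factor Csf1 fell from 83.7 to 17.2 CPM with adult platelets and 41.2 CPM with P7 platelets.

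Across the 9 libraries the 6 genes fell into related patterns, given here as a description, since libraries of 1 group share their treatment. Log2 CPM of Trem3 and Pirb correlated at Pearson r = 0.967, Trem1 and Trem3 at 0.907, and Trem1 and Trem2 at -0.908, while Trem1 and Hcst gave 0.219. Among 7129 candidate genes (7130 for Hcst), those most like Trem1 were Tlr2 (0.991), Zfr (0.987) and Ndel1 (0.984), and those most like Trem2 were Tprkb (0.992), Rnf220 (0.991) and Strada (0.990). For Trem3 they were Fgr (0.997), Cdc42ep4 (0.997) and Pea15a (0.996), and for Pirb they were Pilra (0.995), S1pr2 (0.993) and Fam98a (0.991). Tyrobp came nearest to Nop10 (0.983), Atp5h (0.978) and Gpatch3 (0.977), and Hcst to Trappc9 (0.941), Triobp (0.926) and Sdf2l1 (0.918). A gene can share the order of the libraries without sharing the size of the change: Tlr2, the receptor for bacterial lipopeptides, went from 508 to 812 and 1121 CPM, folds near those of Trem1, whereas Rnf220 went from 99.5 to 94.4 and 80.0 CPM.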

How the data were processed

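RNA of 9 monocyte libraries (3 groups of 3) was taken up with oligo-dT and sequenced as stranded 75-base single reads, per the labels' protocols. The authors deposited whole-number read counts for 55367 gene symbols in each library, not normalised. Per the submitters' processing notes, which give no role or order, the tools were STAR 2.7.6a, featureCounts of Subread 2.0.1, Salmon 1.3.0 and fastp 0.20.1. Genome build, annotation and strand use of the counting: not given in the sources used here.

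From these counts, edgeR 4.0.16 in R 4.3.3 was run with TMM factors (0.882 to 1.10), filterByExpr (minimum count 10), 1 mean per group, 6 residual degrees of freedom and Benjamini-Hochberg adjustment over 13707 genes, and was tested on simulated data. There, the first required share of recovered genes was met narrowly with 1 random seed and missed with another. That requirement was then lowered, and a test of bias was added. The lowered requirement, the bias test and the test of false calls were then met. The simulation changed only a small share of genes, as many up as down. It therefore cannot show how scaling and false calls hold where many genes are called, as here. CPM are counts per 1000000 of the TMM-scaled library. Log2 fold changes carry SE, levels SD. Ratios used exact two-sided permutation tests. Gene positions and transcript lengths are from GENCODE M21 (GRCm38) and promoters from RefSeq (GRCm38.p6), matched by symbol.

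The 6 genes and the lists were chosen with earlier results of these data known. Named genes are the 6, up to 5 per list by smallest p with P7 platelets and up to 3 with adult platelets, and the 3 genes with the highest Pearson correlation to each of the 6 (mean log2 CPM of at least 4); 1 gene that this rule names is not reported here. Alternatives were other scalings, filters, DESeq2 1.42.0, limma 3.58.1 (voom), only the groups compared, a replicate block, marker transcripts removed, and each library left out. Library totals without TMM factors and Igkc as a covariate were added after seeing the data.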

Additional observations from a re-analysis of the deposited data

How the results depend on the processing

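Each result for the 6 genes was recomputed under 20 alternatives. Direction and call held in all 20 for Trem1 and Trem3 in both platelet groups against control, for Trem2 and Pirb with P7 platelets against control and against adult platelets, and for Trem3 with P7 against adult platelets. Scaling mattered most for small differences: the median log2 fold change of all genes for P7 platelets against control moved from -0.014 to -0.12 with upper-quartile factors and to -0.29 with library totals, and for P7 against adult platelets to -0.24 with library totals. Called genes split into 1966 higher and 1651 lower with adult platelets, 4097 and 4014 with P7 platelets, and 2706 and 2718 for P7 against adult platelets. With upper-quartile factors the splits were 1620 and 1945, 3279 and 5012, and 2106 and 3556, and with library totals 1291 and 2278, 2193 and 6846, and 1427 and 5963.

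Tyrobp for P7 platelets against control was no longer called with upper-quartile factors (0.11) or no filter (0.20) and was -0.064 with library totals, and against adult platelets it was -0.034 with upper-quartile factors and -0.175 with library totals. Hcst for P7 platelets against control was -0.036 with library totals, and for P7 against adult platelets it was called at 0.33 with Igkc as a covariate. Trem1 for P7 against adult platelets was not called with upper-quartile factors (0.34), the 2 groups alone (0.41) or library totals (0.20). Trem2 with adult platelets was not called with the 2 groups alone (-0.32). Pirb with adult platelets was called with no filter (0.45), DESeq2 (0.45) and the replicate block (0.44). For genes outside the 6, library totals gave -0.065 for Clec4a2 and -0.12 for Hmgb1 with P7 platelets and -0.20 for Treml2 and -0.097 for Pira2 for P7 against adult platelets, where upper-quartile factors gave -0.054 for Treml2. The cause was not tested.

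Leaving out each library in turn gave these ranges. Genes called with adult platelets numbered 2031 to 3774, the lowest without control replicate 2, with 2207 without control replicate 3. With adult platelets the log2 fold change was -0.45 to -0.22 for Trem2, 0.093 to 0.23 for Tyrobp, -0.19 to 0.062 for Hcst and 0.35 to 0.62 for Pirb. With P7 platelets it was 0.2058 to 0.225 for Tyrobp. For P7 against adult platelets it was 0.25 to 0.51 for Trem1, -0.019 to 0.12 for Tyrobp and 0.19 to 0.43 for Hcst. Signs of uncalled differences turned for Pag1 (-0.20 to 0.021), Clec12a (-0.11 to 0.30), Lrp1 (-0.094 to 0.069) and Ccl6 (-0.095 to 0.056) with adult platelets, for Sirpb1b (-0.41 to 0.089) with P7 platelets, and for Treml2 (-0.11 to 0.14) and Klrk1 (-0.26 to 0.079) for P7 against adult platelets.

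Replicate numbers do not pair the libraries by the labels. Deviations from group means correlated at -0.081 to 0.58 over the 9 same-numbered pairs, 7 of them over 0.1, and not every library correlated best with its own number. The 3 replicate 1 libraries correlated at 0.49 to 0.58 with one another. With other-numbered libraries of the other groups they correlated at -0.56 to 0.10. They also held the highest B and plasma cell sums. What these libraries share was not tested, and the main fit held no replicate term. With the replicate block 2247 genes were higher and 1981 lower with adult platelets, 4336 and 4229 with P7 platelets, and 3022 and 2943 for P7 against adult platelets, and of the 6 genes only the Pirb call with adult platelets changed. Among the other named genes the block added calls with adult platelets for Sirpb1a (0.69), Sirpb1b (0.68), Pilrb1 (0.78), Pilrb2 (0.60), Pilra (1.04), Klrk1 (-0.53) and Lpl (-0.70), and with P7 platelets for Clec4a2 (0.21) and Hmgb1 (0.16); DAP12- or DAP10-linked receptors called higher with adult platelets then numbered 6 and those called lower 1. Depth limits Hcst most, at 143 to 207 counts per library.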
